A study of Danio rerio with 6 samples.

Results

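The suppressors of cytokine signalling (SOCS) were followed in bulk RNA sequencing libraries of cells sorted from zebrafish skeletal tissue. The members were the 9 genes socs1a, socs1b, socs2, socs3a, socs3b, socs4, socs5a, socs5b and socs7, chosen by symbol, out of 36351 gene rows in the deposited counts, and each symbol named 1 row. The 6 libraries came from fish homozygous for a mutant clcn7 allele (clcn7-/-, 3 libraries) and from their WT siblings (3 libraries), all at 10 weeks post fertilization and all carrying a ctsk:dsRed transgene, in which the promoter of the osteoclast protease gene ctsk drives a red fluorescent protein. Tissue was dissociated with trypsin and collagenase, and each library held dsRed-positive live cells, 5000 from each of 2 fish pooled, so 1 fish cannot be told from the other within a library. The protein made from clcn7 swaps chloride for protons in lysosomes, and bone resorption by osteoclasts depends on it. The series screened non-resorbing osteoclasts for secreted factors that promote bone formation. The labels used here do not describe the mutation.

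SOCS proteins end the signal of cytokine receptors. Such receptors carry Janus kinases (JAK), which phosphorylate the receptor and the STAT transcription factors. STATs in turn switch on some of the SOCS genes, and the transcripts of those genes are both targets and brakes of the pathway. An SH2 domain binds the phosphorylated receptor or kinase, and a SOCS box recruits an elongin and cullin ubiquitin ligase that marks the bound protein for degradation. SOCS1 and SOCS3 also block JAK activity directly. In mice, SOCS1 is known for restraining interferon signals and SOCS3 for restraining receptors that use gp130 and the receptor for granulocyte colony-stimulating factor (G-CSF), and both are known to alter how osteoclasts form in the presence of cytokines. Zebrafish have duplicates (a and b) of several of these genes.

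The clcn7-/- libraries held 22739782, 26856895 and 25829347 counts over genes and the WT libraries 26399790, 26951306 and 24518036. Values are CPM, gene counts scaled to library size with TMM factors, and 1 count equals between 0.0351 and 0.0434 CPM. In the sum of osteoclast markers, largely acp5a and ctsk, WT replicate 1 lay apart from WT replicates 2 and 3. The markers nfatc1, itgb3a, itgb3b and calcr did not share this. The summed CPM of 13 osteoclast markers was 2784, 2385 and 3416 in clcn7-/- replicates 1, 2 and 3, against 2933, 1403 and 1427 in WT replicates 1, 2 and 3, and none of these markers was at 0. ctsk, the gene behind the sort, stood at 1266, 1055 and 1263 CPM in clcn7-/- replicates 1, 2 and 3 and at 1024, 464 and 512 CPM in WT replicates 1, 2 and 3. clcn7 itself had 39.1, 28 and 37.8 CPM in clcn7-/- replicates 1, 2 and 3 and 34, 30.5 and 26.1 CPM in WT replicates 1, 2 and 3, so its level does not check the genotype labels.

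Of the 9 members, 8 had enough counts to be tested and 3 of them changed between genotypes. socs7 and socs1a rose in clcn7-/- cells, socs3a fell, and socs1b, socs2, socs3b, socs5a and socs5b did not pass the test (quasi-likelihood F test in edgeR, with p adjusted by Benjamini-Hochberg over 20438 genes and called under 0.05). Over all tested genes 14.7% were called, 9.91% as higher and 4.83% as lower; the lower calls were 987 of 3012 with TMM, 1675 of 3462 with upper-quartile factors and 564 of 3190 with library size alone. In log2 the median difference was 0.07 for the 8 tested members and -0.05 for all tested genes. Libraries of the 2 genotypes did not overlap for 5 of the 8 tested members, and 37% of all tested genes had no overlap.

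**Figure D1:**
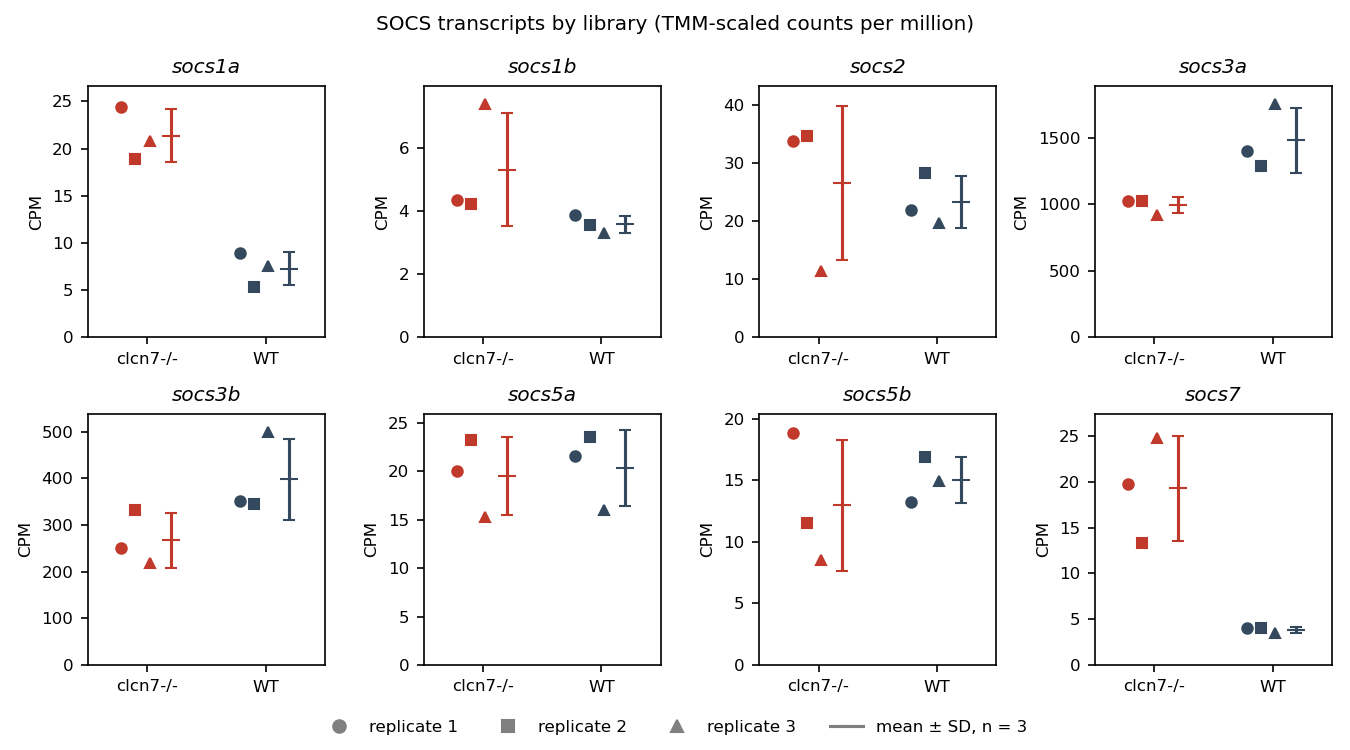
Level of each tested SOCS gene (y axis, TMM-scaled CPM, from 0) in the 3 clcn7-/- libraries (red, left) and the 3 WT libraries (blue, right) of each panel; marker shapes give the replicate and bars the mean ± SD. The genotypes stand apart for socs7, socs1a and socs1b, above WT, and for socs3a and socs3b, below WT, while socs2, socs5a and socs5b overlap.

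socs7 had the greatest fold change of the members. In mammals SOCS7 is known to bind the adaptor NCK and insulin receptor substrates. Its CPM was 19.8, 13.3 and 24.8 in clcn7-/- replicates 1, 2 and 3, against 4.05, 4.02 and 3.48 in WT replicates 1, 2 and 3. Every clcn7-/- library lay above every WT library, and the WT libraries were close to each other while the clcn7-/- libraries spread. Group means were 19.3 ± 5.76 CPM in clcn7-/- and 3.85 ± 0.326 CPM in WT (SD, n = 3 each). On the log2 scale the difference was 2.32 ± 0.26 (SE; adjusted p = 0.00208 in edgeR), a 5.01-fold higher level with a 95% interval of 3.27 to 7.66. The raw counts behind these values were 457, 380 and 694 in clcn7-/- libraries and 103, 102 and 80 in WT libraries. The call held in all 6 fits that each left out 1 library, with log2 fold changes between 2.11 and 2.53.

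socs1a rose and its duplicate socs1b did not pass the test. socs1a measured 24.4, 18.9 and 20.8 CPM in clcn7-/- replicates 1, 2 and 3, against 8.89, 5.37 and 7.56 CPM in WT replicates 1, 2 and 3. The lowest clcn7-/- library stood above the highest WT library. The difference of socs1a was 1.55 ± 0.23 in log2 (SE; adjusted p = 0.00517 in edgeR), a 2.94-fold higher level with a 95% interval of 2.03 to 4.24. The call held in all 6 fits without 1 library (log2 fold change 1.40 to 1.76). socs1b had 4.33, 4.21 and 7.37 CPM in clcn7-/- replicates 1, 2 and 3, against 3.86, 3.55 and 3.30 CPM in WT replicates 1, 2 and 3. The groups do not overlap, but the first 2 clcn7-/- libraries lay close to WT and replicate 3 carried most of the difference. The difference of socs1b was 0.57 ± 0.32 in log2 (SE; adjusted p = 0.274 in edgeR), with a 95% interval of -0.16 to 1.30, and it was 0.26 without clcn7-/- replicate 3.

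The socs3 duplicates gave the most counts of the members, a number that also depends on transcript length. socs3a fell in clcn7-/- cells, and socs3b had nearly the same fold without passing the test. socs3a measured 1027, 1025 and 922 CPM in clcn7-/- replicates 1, 2 and 3, against 1400, 1291 and 1759 CPM in WT replicates 1, 2 and 3. The clcn7-/- libraries were close together, and all lay below the lowest WT library. Its mean of 991 ± 60.4 CPM in clcn7-/- was 66.8% of the WT mean of 1483 ± 245 CPM (SD, n = 3 each), a log2 difference of -0.58 ± 0.16 (SE; adjusted p = 0.0495 in edgeR). This call lay at the threshold and was lost in each of the 6 fits that left out 1 library. Adjusted p was 0.113, 0.0893 and 0.123 without clcn7-/- replicates 1, 2 and 3, and 0.0909, 0.0849 and 0.208 without WT replicates 1, 2 and 3. The direction stayed the same, at log2 fold changes of -0.64 to -0.40. It was also lost with library size alone as the scaling (log2 fold change -0.43, adjusted p = 0.0998) and with no low-count filter (adjusted p = 0.0683), and kept with DESeq2 (adjusted p = 0.00792) and limma-voom (adjusted p = 0.0393). socs3b measured 251, 332 and 218 CPM in clcn7-/- replicates 1, 2 and 3, against 352, 344 and 499 CPM in WT replicates 1, 2 and 3. WT replicate 3 was the highest library for both genes, and the highest clcn7-/- library of socs3b lay just below the lowest WT library. The log2 difference of socs3b was -0.58 ± 0.22 (SE; adjusted p = 0.117 in edgeR), with a 95% interval of -1.08 to -0.07, and it lay between -0.76 and -0.34 in the fits without 1 library.

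The other members did not pass the test. SOCS2 is known as a brake on growth hormone signalling. socs2 measured 33.8, 34.6 and 11.3 CPM in clcn7-/- replicates 1, 2 and 3 and 21.9, 28.3 and 19.6 CPM in WT replicates 1, 2 and 3. Its clcn7-/- libraries lay on both sides of the WT range (log2 fold change 0.19 ± 0.39 SE, edgeR adjusted p = 0.788), and without clcn7-/- replicate 3 the log2 fold change was 0.56. SOCS4 and SOCS5 are known in mammals to act on the epidermal growth factor receptor. socs5a measured 20.1, 23.3 and 15.3 CPM in clcn7-/- replicates 1, 2 and 3 and 21.6, 23.5 and 16 CPM in WT replicates 1, 2 and 3. The groups overlap almost completely, and the 95% interval of its log2 fold change was -0.56 to 0.44 (edgeR adjusted p = 0.889). socs5b measured 18.9, 11.5 and 8.51 CPM in clcn7-/- replicates 1, 2 and 3 and 13.3, 16.9 and 14.9 CPM in WT replicates 1, 2 and 3. The WT libraries fall within the wider clcn7-/- range (log2 fold change -0.21 ± 0.29 SE, 95% interval -0.89 to 0.46, edgeR adjusted p = 0.673), and the log2 fold change was -0.58 without clcn7-/- replicate 1. socs4 had 1 count in clcn7-/- replicate 2 and 0 counts in the other 5 libraries. A count of 0 allows up to 0.130 CPM in clcn7-/- replicate 1 and 0.107 CPM in clcn7-/- replicate 3, and up to 0.118, 0.118 and 0.130 CPM in WT replicates 1, 2 and 3, covering counting error only. No test or fold was made for it.

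**Figure D2:**
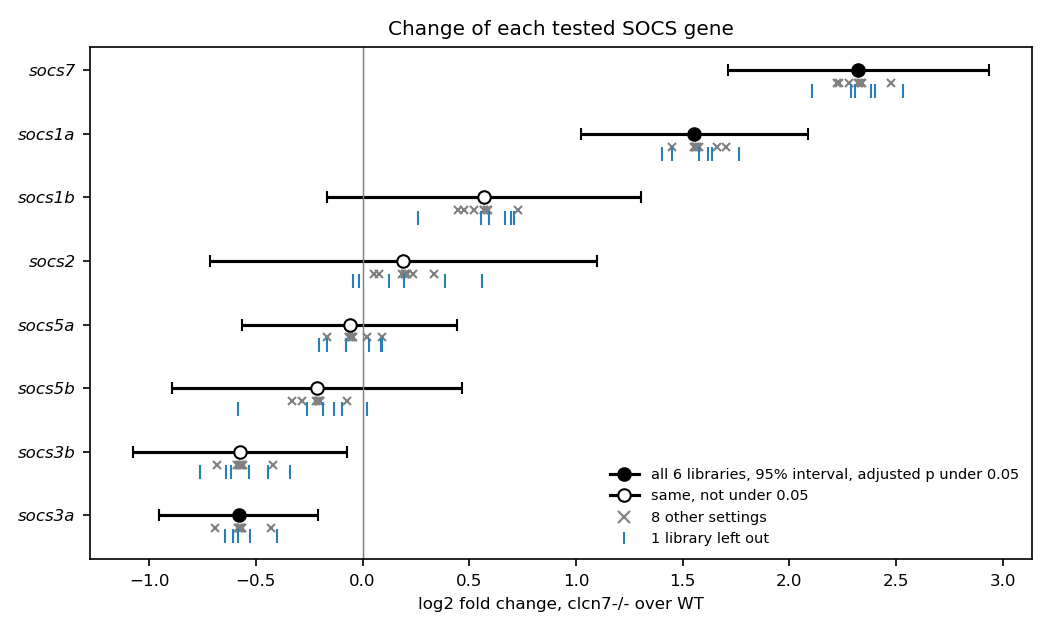
Log2 fold change of the 8 tested SOCS genes, clcn7-/- over WT (x axis), with the 95% interval from all 6 libraries (circles, filled where adjusted p is under 0.05), the values under 8 other settings (crosses) and those with 1 library left out (blue ticks). All marks of socs7 and socs1a lie right of 0 and all marks of socs3a and socs3b left of 0, while those of socs2, socs5a and socs5b reach both sides.

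The authors' deposited table, made from the same 6 libraries and so not a separate test, lists the same directions for all 8 tested members. In that table socs7 has a log2 fold change of 2.33 with adjusted p = 1.43e-12, socs1a one of 1.56 with adjusted p = 1.41e-07, and socs3a one of -0.57 with adjusted p = 0.00463. The authors' deposited table gives socs3b an adjusted p of 0.0648 and no value for socs4.

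The balance within each pair of duplicates was compared over the libraries, as the ratio of CPM + 0.5. socs1a over socs1b was 5.16, 4.11 and 2.71 in clcn7-/- replicates 1, 2 and 3, against 2.16, 1.45 and 2.12 in WT replicates 1, 2 and 3. The groups do not overlap (lowest clcn7-/- ratio 2.71, highest WT ratio 2.16), and the mean log2 ratio was higher by 1.04 in clcn7-/- libraries. The two-sided exact permutation p was 0.1 (adjusted p = 0.3 over 3 pairs). This p is the smallest that 3 against 3 libraries can give, and any groups without overlap reach it. The permutation test could therefore not reach the threshold used for calls, and it does not decide whether the balance changed. socs3a over socs3b was 4.08, 3.08 and 4.21 in clcn7-/- libraries, against 3.98, 3.74 and 3.53 in WT libraries. The mean log2 ratio differed by 0.0048 (exact permutation p = 1). socs5a over socs5b was 1.06, 1.97 and 1.75 in clcn7-/- libraries and 1.61, 1.38 and 1.07 in WT libraries, with overlapping groups (difference of 0.21 in the mean log2 ratio, exact permutation p = 0.6, adjusted p = 0.9).

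**Figure D3:**
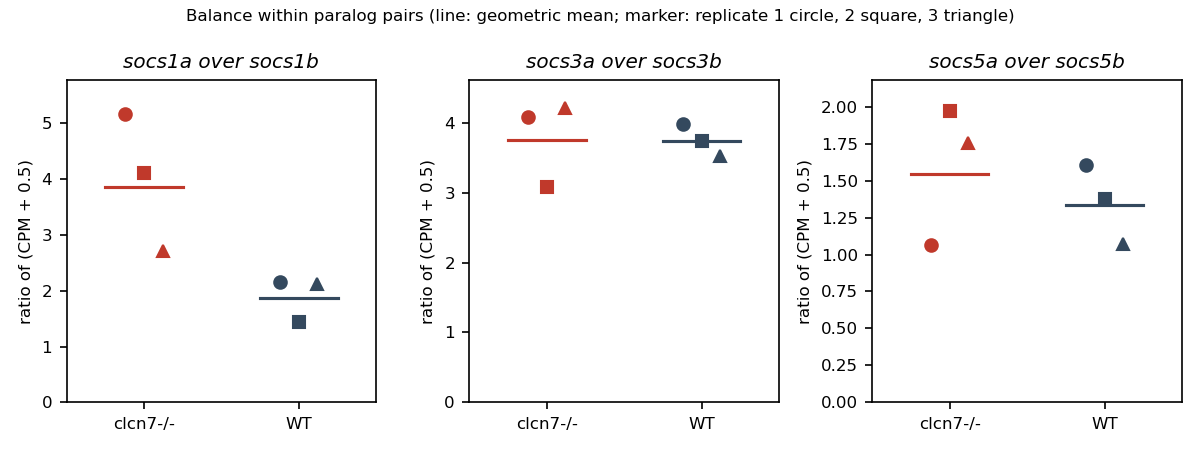
Ratio of the first to the second duplicate in each pair (y axis, ratio of CPM + 0.5, from 0) in the clcn7-/- libraries (red, left) and WT libraries (blue, right); lines are geometric means of 3 libraries. The socs1a to socs1b ratio is higher in all clcn7-/- libraries, the socs3 ratio has nearly the same mean in both genotypes, and the socs5 ratio overlaps.

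Across the 6 libraries some pairs of members were strongly correlated. On log2(CPM + 0.5) values Pearson's r was 0.94 for socs1a with socs7 and 0.92 for socs3a with socs3b, while socs7 and socs3a had r = -0.92. These values describe 6 libraries that include the genotype difference, and all genes of a library share its scaling. They do not show that the genes moved together within a genotype. socs2 and socs5a had r = 0.81: in both genotypes their lowest library was replicate 3 and their highest replicate 2. Over 11229 other genes with a mean of at least 5 CPM, those most like socs7 were the NADH dehydrogenase subunit gene ndufs8a (r = 0.999), the ferritin gene fthl27 (r = 0.999) and the caspase gene casp3b (r = 0.998). Those most like socs1a were aurkb and cdca8 (both r = 0.998), which encode parts of the chromosomal passenger complex of dividing cells, and snapc5 (r = 0.997). For socs3a they were mocs3 (r = 0.998), march6 (r = 0.995) and wipi2 (r = 0.995). With 6 libraries, r was over 0.95 for 900 genes with socs7, 656 with socs1a and 94 with socs3a.

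The genes that act beside SOCS proteins were read from lists of exact symbols. Over all tested genes 9.91% were called higher and 4.83% lower, and the counts of each list below stand beside these shares. Of the SOCS-box relatives outside the members, 10 were tested and none was called in edgeR, DESeq2 or limma-voom, nor had any an unadjusted edgeR p under 0.05. Their median log2 fold change was -0.21. cish, the classic STAT5-induced relative, had 45.3, 53.4 and 39.2 CPM in clcn7-/- replicates 1, 2 and 3 and 31.8, 71.8 and 59 CPM in WT replicates 1, 2 and 3, with overlapping groups. socs6b differed by -0.19 ± 0.14 in log2 (SE; adjusted p = 0.421 in edgeR). Of the ubiquitin ligase partners of the SOCS box, 5 were tested, and likewise none was called by edgeR, DESeq2 or limma-voom, with 0 at an unadjusted p under 0.05. The elongin C gene elocb (-0.0034 ± 0.141) and the cullin gene cul5a (0.23 ± 0.15) had log2 differences with edgeR adjusted p of 0.991 and 0.336.

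Upstream of SOCS, several cytokine genes rose. Of 23 tested cytokines and hormones of the pathway 6 rose and 1 fell, around a median of 0.10 in log2. The G-CSF gene csf3a stood at 30, 29.9 and 30.5 CPM in clcn7-/- replicates 1, 2 and 3, against 1.69, 1.42 and 1.30 CPM in WT replicates 1, 2 and 3 (log2 fold change 4.35 ± 0.19 SE). m17, a fish cytokine of the interleukin 6 family, stood at 51.5, 43.7 and 54 CPM in clcn7-/- libraries, against 4.88, 2.80 and 4.74 CPM in WT libraries (log2 fold change 3.59 ± 0.24 SE). il6 itself was near its floor in WT replicates 1 and 2, at 9.31, 10.9 and 6.61 CPM in clcn7-/- libraries against 0, 0.158 and 0.956 CPM in WT libraries (edgeR adjusted p = 0.0193). il15 was the member that fell (log2 fold change -0.59 ± 0.16 SE, edgeR adjusted p = 0.0452), a call that was lost in all 6 fits without 1 library, with adjusted p of 0.0505 to 0.157. Interferon gamma genes ifng1 and ifng1r had too few counts to be tested.

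Among the receptors of these signals the edgeR calls were for higher levels, where 9.91% of all tested genes were called higher and 4.83% lower. Of 37 tested receptors 8 rose and 0 fell (2 lower at an unadjusted edgeR p under 0.05, 1 lower with DESeq2 and 0 lower with limma-voom), around a median of 0.30 in log2. The interleukin 10 receptor gene il10ra had 32.6, 20.3 and 36.8 CPM in clcn7-/- replicates 1, 2 and 3, against 2.28, 2.92 and 1.78 CPM in WT replicates 1, 2 and 3 (log2 fold change 3.68 ± 0.30 SE). il6r had 89.2, 88.8 and 77.6 CPM in clcn7-/- libraries, against 16.4, 14.3 and 22.4 CPM in WT libraries (log2 fold change 2.27 ± 0.20 SE). il6st, which encodes gp130, the signalling chain that mammalian SOCS3 binds, differed by -0.34 ± 0.20 in log2 (SE; adjusted p = 0.305 in edgeR). The G-CSF receptor gene csf3r, another known partner of SOCS3, rose by 3.06 ± 0.32 in log2 (adjusted p = 0.00171 in edgeR).

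All 5 Janus kinase genes were tested and 3 rose, around a median of 1.00 in log2. jak3 had 39.5, 24.3 and 34.7 CPM in clcn7-/- replicates 1, 2 and 3, against 10.3, 6.79 and 6.60 CPM in WT replicates 1, 2 and 3 (log2 fold change 2.05 ± 0.26 SE). jak2a had 41.1, 39.1 and 41.1 CPM in clcn7-/- libraries, against 20, 21.7 and 17.3 CPM in WT libraries (log2 fold change 1.04 ± 0.14 SE), and tyk2 also rose. Of 8 tested STAT genes 1 rose, stat4, around a median of 0.18 in log2. stat4 differed by 1.41 ± 0.36 (SE; adjusted p = 0.037 in edgeR), and its call was lost without clcn7-/- replicate 1 or 3 or WT replicate 2 or 3, with adjusted p of 0.0533 to 0.105. stat3, which mammalian SOCS3 restrains, had 191, 177 and 207 CPM in clcn7-/- libraries and 140, 165 and 171 CPM in WT libraries (log2 fold change 0.27 ± 0.14 SE, edgeR adjusted p = 0.234). No STAT gene was called lower in edgeR, DESeq2 or limma-voom, and 0 were lower at an unadjusted edgeR p under 0.05.

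Some other inhibitors of the pathway also rose. Of 16 tested genes 4 rose and 0 fell (2 lower at an unadjusted edgeR p under 0.05, 1 lower each with DESeq2 and limma-voom), around a median of 0.23 in log2. The ubiquitin ligase gene cbl had 97.6, 69.9 and 95.6 CPM in clcn7-/- replicates 1, 2 and 3, against 30.8, 27.9 and 28.7 CPM in WT replicates 1, 2 and 3 (log2 fold change 1.59 ± 0.17 SE). ptpn6, which encodes the phosphatase SHP-1 of blood cells, had 162, 87.5 and 159 CPM in clcn7-/- libraries, against 30.9, 18.4 and 22.2 CPM in WT libraries (log2 fold change 2.52 ± 0.30 SE). ptprc, which encodes CD45, and ptpn11b rose as well.

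Among receptor tyrosine kinases and adaptors that SOCS proteins bind, 22 were tested, 3 rose and 5 fell, around a median of -0.54 in log2. The SOCS7 partner gene nck1b rose, at 87, 78.8 and 89.1 CPM in clcn7-/- libraries against 37.9, 39.9 and 37.3 CPM in WT libraries (log2 fold change 1.15 ± 0.13 SE). irs1, another SOCS7 partner gene, fell, at 30.3, 29.8 and 21.5 CPM in clcn7-/- libraries against 57.2, 51.1 and 50 CPM in WT libraries (log2 fold change -0.96 ± 0.17 SE). csf1rb rose by 1.94 ± 0.52 (edgeR adjusted p = 0.0443), a call kept in 2 of the 6 fits without 1 library (adjusted p of 0.026 to 0.134). igf1rb fell, with a log2 difference of -0.91 ± 0.16, and its call was kept in 5 of these 6 fits. Without 1 library, the number that rose was 1 for clcn7-/- replicate 1, clcn7-/- replicate 3, WT replicate 2 and WT replicate 3, and the number that fell was 1 for WT replicate 3, 2 for clcn7-/- replicate 1, WT replicate 1 and WT replicate 2, and 3 for clcn7-/- replicate 3. Of the genes of Toll-like receptor signalling (adaptors, kinases and others), 12 were tested, around a median of 0.18 in log2. Among them 2 rose, irak3 (1.69 ± 0.31) and tirap (1.99 ± 0.41). That number was 0 without WT replicate 3 and 1 without clcn7-/- replicate 1 or WT replicate 2.

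**Figure D4:**
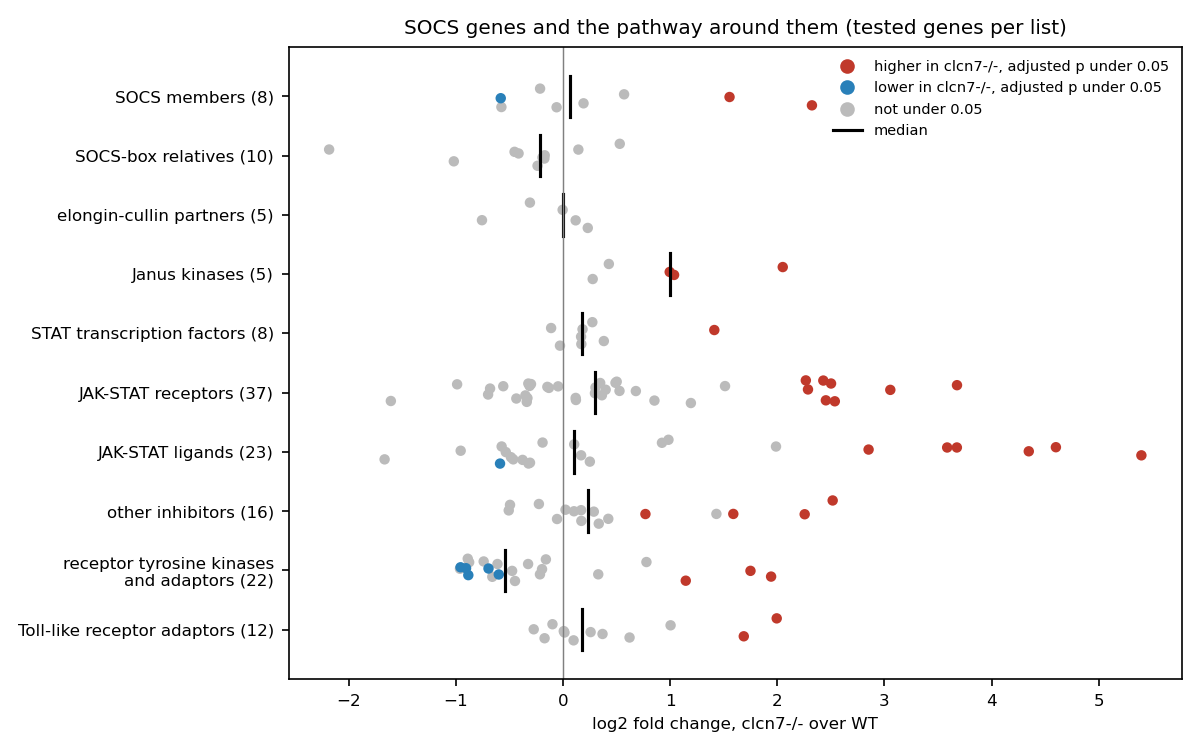
Log2 fold change, clcn7-/- over WT (x axis), of every tested gene in the SOCS set and in each list reported beside it (rows, with the number of tested genes); red dots are called higher, blue dots lower and grey dots not called, and the black bar is the median. The calls above 2 lie mainly in the receptor and ligand rows, and no SOCS-box relative or elongin-cullin partner is coloured. The row labelled Toll-like receptor adaptors also holds kinases and other genes of that pathway.

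Markers of other cell types moved with genotype beside these changes. In bulk libraries a change in the number of cells of a type and in RNA per cell cannot be told apart. Of 17 tested macrophage markers 16 rose, and their summed level ranged over 4098 to 8664 CPM in clcn7-/- libraries and 1338 to 2294 CPM in WT libraries, with none at 0. This list also holds ptprc, lcp1 and coro1a, which are not particular to macrophages among blood cells. mpeg1.1, marco and c1qa were among those that rose. Of 15 tested neutrophil markers 13 rose (2545 to 2762 CPM in clcn7-/-, 538 to 725 CPM in WT). Lymphocyte markers had 3 of 12 risen (429 to 833 CPM in clcn7-/-, 90 to 143 CPM in WT). That number was 1 without clcn7-/- replicate 1, clcn7-/- replicate 3 or WT replicate 3. Most of the lymphocyte sum was ccr9a, with a mean of 570 CPM in clcn7-/- and 87.5 CPM in WT. rag1, rag2, zap70, il7r, cd4-1 and tcf7 overlapped between genotypes. Erythroid markers had 9 of 10 risen (1039 to 2791 CPM in clcn7-/-, 352 to 611 CPM in WT). Endothelial markers had 5 of 12 risen (560 to 1656 CPM in clcn7-/-, 189 to 266 CPM in WT). These were stab1, stab2, lyve1b, mrc1a and tie1, while kdrl, cdh5, fli1a and pecam1 overlapped between genotypes and were not called. Of 12 keratinocyte markers 8 fell (16133 to 26723 CPM in clcn7-/-, 42427 to 52445 CPM in WT), but 0 without WT replicate 3 and 3 without clcn7-/- replicate 1, clcn7-/- replicate 3 or WT replicate 1. Of 13 osteoblast markers 4 fell (3687 to 4888 CPM in clcn7-/-, 5819 to 8562 CPM in WT), and 2 without clcn7-/- replicate 2, clcn7-/- replicate 3 or WT replicate 2. Osteoclast markers had 1 risen and 1 fallen of 13 (4 risen without WT replicate 1). The fallen marker was nfatc1, and the count of 1 fallen was kept in 2 of the 6 fits without 1 library. Skeletal muscle markers had 3 risen of 10 (1 without WT replicate 3, 6 without clcn7-/- replicate 2). Fibroblast markers had 0 called of 13 in edgeR (6 lower at an unadjusted p under 0.05, 4 lower with DESeq2 and 3 with limma-voom). The fibroblast sum still did not overlap between genotypes (29539 to 44715 CPM in clcn7-/-, 46235 to 62745 CPM in WT). Most of this sum was the collagen genes col1a1a and col1a2, with means of 12272 and 17045 CPM in clcn7-/-. Their WT means were 17781 and 24383 CPM, and each overlapped between genotypes. Of the other fibroblast markers, dcn, lum, postna, pdgfrl, twist1a and col5a1 did not overlap, while postnb, fbln1, col5a2a, pdgfra and thy1 did. The median of these 13 markers was -0.54 in log2, and 1 of them had a positive log2 fold change. The lists overlap with those above: il6r and csf3r are on the neutrophil list, ptprc and csf1ra on the macrophage list and epor on the erythroid list. The part of these cell types in the SOCS changes was not tested.

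Immediate-early genes, which enzymatic dissociation is known to raise in mouse tissue together with Socs3, were also read. Of 19 tested 3 rose and 3 fell, around a median of -0.15 in log2, and 6 had a positive log2 fold change. Their summed level was 13256, 16922 and 15256 CPM in clcn7-/- replicates 1, 2 and 3, against 17927, 19615 and 24018 CPM in WT replicates 1, 2 and 3. fosab and junbb, both called lower, gave the largest parts of this sum. junbb had a mean of 2573 CPM in clcn7-/- and 4252 CPM in WT, while jun, egr1, jund and dusp1 overlapped between genotypes. WT replicate 3, the highest library for socs3a and socs3b, was also the highest for this sum. fosab fell, at 2543, 3193 and 2937 CPM in clcn7-/- libraries against 4263, 4675 and 5936 CPM in WT libraries (log2 fold change -0.78 ± 0.18 SE, edgeR adjusted p = 0.0281). nr4a1 rose, at 607, 681 and 741 CPM in clcn7-/- libraries against 268, 333 and 278 CPM in WT libraries (log2 fold change 1.21 ± 0.15 SE). The number that fell was 0 without clcn7-/- replicate 1, clcn7-/- replicate 3, WT replicate 2 or WT replicate 3, and 0 with library size alone. This list was added after the data were seen, and its single genes were named after their values were seen. The part of tissue handling in the socs3a difference was not tested.

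The position of the members was read against clcn7, because fish selected as mutants also carry the chromosome region around the mutation. By the gene order of GRCz12tu (the authors named GRCz11), socs1a and clcn7 lie on 1 chromosome with 12 protein-coding genes between them. socs3a lies on the same chromosome, and the other 7 members lie on others. Of the 12 genes, 11 were in the counts and 10 were tested. None rose in edgeR, DESeq2 or limma-voom (1 at an unadjusted edgeR p under 0.05), emp2 fell (log2 fold change -0.77 ± 0.12 SE, edgeR adjusted p = 0.00675), and the median of the 10 was -0.10 in log2. In the 10 genes past each end of that interval 3 in all rose, where 9.91% of all tested genes were called higher. Of the 10 genes on the far side of socs1a 9 were tested, and adap2 (1.89 ± 0.32, edgeR adjusted p = 0.00878) and atad5a (1.43 ± 0.31, edgeR adjusted p = 0.0215) rose. Of the 10 genes past clcn7 7 were tested, and arhgdig (1.38 ± 0.19, edgeR adjusted p = 0.00422) rose. The neighbours on either side of socs1a, pigq (0.82 ± 0.28, edgeR adjusted p = 0.0874) and clec16a (0.41 ± 0.15, edgeR adjusted p = 0.104), did not pass the test. Whether socs1a differs through the mutation or through linked sequence cannot be told apart in this design.

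**Figure D5:**
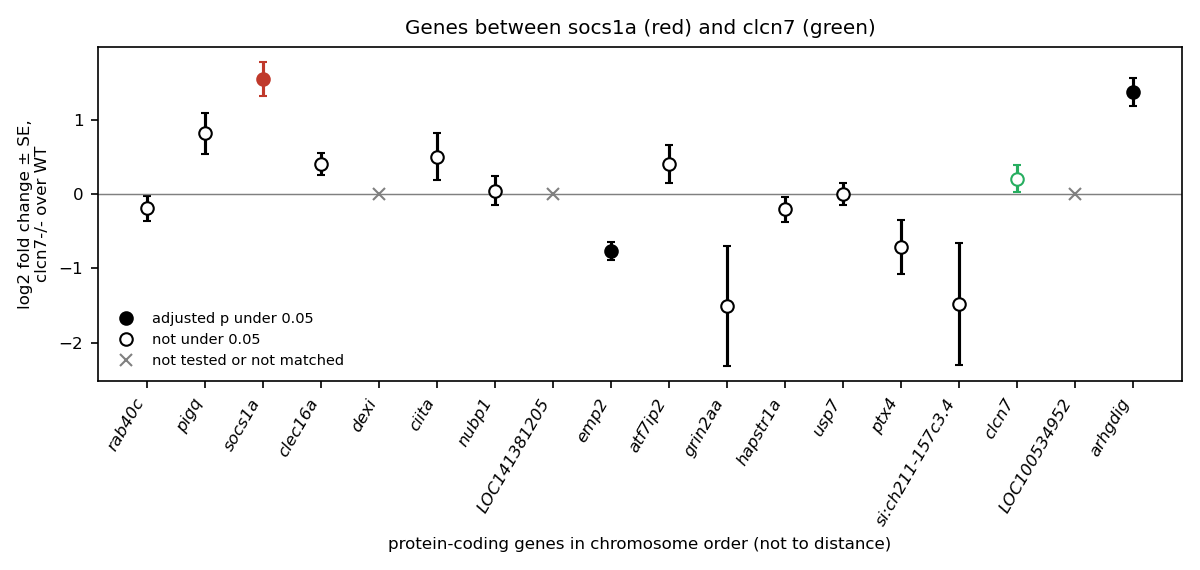
Log2 fold change ± SE, clcn7-/- over WT (y axis), of the protein-coding genes from just before socs1a (red) to just after clcn7 (green), in chromosome order without distances; filled circles have adjusted p under 0.05 and crosses mark genes not tested or not matched. Between the pair, emp2 at -0.77 is the only filled circle, while socs1a stands at 1.55 and clcn7 at 0.21.

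Overlapping genes can share reads with a member where the counting did not use strand, and the strand setting is not given in the sources used here. In the GRCz12tu annotation the span of socs7 overlaps that of gpr179, which was not matched to the counts. The genes on either side of socs7, sp2 (0.01 ± 0.17, edgeR adjusted p = 0.975) and mrpl45 (0.10 ± 0.15, edgeR adjusted p = 0.700), did not pass the test. socs1b overlaps the Toll-like receptor gene tlr2, which had 7.77 ± 4.73 CPM in clcn7-/- and 1.99 ± 1.95 CPM in WT (SD, n = 3 each, edgeR adjusted p = 0.176). socs4 overlaps gnpnat1, and socs2 overlaps ncaph2. Neither of those genes was called in the edgeR test.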

How the data were processed

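The authors deposited raw counts, with a file of gene rows for each library. The submitters' processing notes name GRCz11, HTSeq 0.9.1, STAR 2.7.0a, Trim Galore and DESeq2. Settings, annotation and strand were not given in these sources. The authors also deposited a table with log2 values per library, log2 fold changes and adjusted p-values. Its fold changes and p-values are quoted as the authors' and its values per library were not used.

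The 5 rows that name no gene (20.1% to 23.0% of counts) were left out. The filterByExpr filter (min.count 10, min.total.count 15) was applied, and counts were scaled with TMM and tested with edgeR 4.0.16 in R 4.3.3 (quasi-likelihood F test, genotype as the only term), adjusted by Benjamini-Hochberg over 20438 genes and called under 0.05. SE is the absolute log2 fold change over the square root of F, and 95% intervals use the test's degrees of freedom. The common coefficient of variation was 35.3%. The main edgeR fit was tested on simulated counts, and the other steps were not. Alternatives used DESeq2 1.42.0, limma 3.58.1, other scalings and filters, the replicate number as a term and leaving out libraries.

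Named genes are the members, per pathway list the 2 risen and 2 fallen genes with the smallest p (or the 2 highest in CPM), 3 genes most like each called member, and clcn7. tyk2, csf3r, il6, il6st, stat3, ptprc, ptpn11b, csf1ra, epor, ifng1 and ifng1r were named after their values were seen. So were the single immediate-early genes, the single macrophage, lymphocyte, endothelial, osteoclast and fibroblast markers and the neighbouring genes. Members and lists were chosen with earlier results of these data known. Symbols were matched exactly. All 9 members are in the RefSeq table of GRCz12tu, from which only gene order and the overlap of gene spans were used. Protein and promoter sequences were not used here, and a list of genes induced by the pathway is not reported here. p-values measure the spread between pools of fish.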

Additional observations from a re-analysis of the deposited data

How the results depend on the processing

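socs7 and socs1a kept their direction and their call under all 8 other settings and in all 6 fits without 1 library. The call of socs3a was lost with library size alone (log2 fold change -0.43), with no low-count filter (-0.58) and with the replicate number as a block (-0.57, adjusted p = 0.0855), so that 0 members were called lower there and in each fit without 1 library, where socs3a ranged from -0.64 to -0.40. Signs without a call turned for socs2 (-0.0434 to 0.56 without 1 library), socs5a (0.0898 with library size alone, 0.0222 with limma-voom, -0.20 to 0.093 without 1 library), socs5b (-0.58 to 0.0194), cish (-0.47 to 0.0483), elocb (0.009 with RLE factors, 0.15 with library size alone, 0.013 with DESeq2, -0.059 to 0.0965 without 1 library) and the socs3a to socs3b balance (-0.0776 to 0.1471). Over all genes 3012 were called, 4582 with DESeq2 and 1356 to 2527 without 1 library. The 2025 higher calls ranged from 1157 to 1828 without 1 library, and the 987 lower calls from 199 to 737. Lower calls numbered 1675 with upper-quartile factors (of 3462), 564 with library size alone (of 3190) and 1862 with DESeq2. Across all tested genes the median moved to 0.10 with library size alone and to -0.16 with upper-quartile factors, against -0.05 with TMM. The causes were not tested.

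The replicate numbers were not taken to pair the libraries, since deviations from the group means correlated at 0.254, 0.053 and 0.160 for same-numbered pairs 1, 2 and 3. Every library correlated best with its own number, a hint from the data only. The block called 3007 genes and changed no other member's call. Blocked paralog balances kept the difference, with an exact sign-flip p of at least 0.25, the smallest possible. Leaving out a replicate brought the balance of socs1a to socs1b to 0.83 to 1.29 and that of the socs5 pair to 0.03 to 0.48. socs4 had 1 count in all, too few for a test.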
